A study of Mus musculus with 8 samples.

Results

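The control neural retina of the juvenile mouse is described here from the 4 libraries that GEO's labels call control, out of 8 libraries in the series. Of these 4, replicates 1, 3 and 4 came from Mfp2+/+ mice and replicate 2 from an Mfp2+/- mouse, which carries 1 working copy of the gene for peroxisomal multifunctional protein 2. All mice were C57BL/6J and 3 weeks old, and each library was made from both retinas of 1 mouse. The other 4 libraries were from Mfp2-/- mice, and their retinas are used here for the counts of the targeted gene. RNA was counted by 3′ tag sequencing, in which a transcript yields a read near its polyadenylated end whatever its length, so that levels of different genes are set side by side as counts per 1000000 counts in genes (CPM) without division by length. The control group mixes the 2 genotypes, and no sex is given in the labels.

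The retina turns light into nerve signals in rods, which serve dim light, and cones, which serve daylight and colour. In both cell types light activates an opsin, the G protein transducin and a cGMP phosphodiesterase, and the fall in cGMP closes a cation channel in the outer segment. Rods and cones use different members of the same gene families for most of these steps. Bipolar cells carry the signal inward, horizontal and amacrine cells shape it, ganglion cells send it to the brain, and Müller glia span the whole tissue.

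The control libraries held 2340974 to 3226187 counts in genes and between 17177 and 17832 genes with a count. Between 34.6% and 39.4% of all reads fell in genes, with the highest share in replicate 3, which also had the fewest reads outside genes (22.6%, against 27.1% to 29.9% in the other replicates). A count of 0 allows a level of up to 1.28 CPM in replicate 2 and 0.930 CPM in replicate 3, taking 3 counts as the limit. These limits and the binomial intervals given later cover counting error only. Hsd17b4, which encodes multifunctional protein 2, was counted 47, 20, 78 and 37 times in replicates 1 to 4, whereas the libraries of Mfp2-/- mice gave it 1, 0, 1 and 0 counts. Among controls it ranked 8206 by mean level, at 16.1, 8.54, 24.2 and 12.4 CPM, with the lowest value in the Mfp2+/- library. Over the 3809 genes at 50 CPM or more, Pearson's r of log2(CPM + 1) between control libraries ran from 0.933 for replicates 1 and 3 to 0.972 for replicates 2 and 4, across genes that are not independent of each other.

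A few genes held much of the counts. The 10 genes of highest mean CPM over the libraries took 19.6% ± 0.700 of the counts in genes (SD, n = 4). The 100 highest by that mean took 31.9% ± 0.635, and the 1000 highest took 58.2% ± 0.412. With mitochondrially encoded genes and Yam1 left out, the first 2 of these shares were 7.88% and 19.1%. Per library, 14793 ± 365 genes reached 1 CPM, 9518 ± 79.5 reached 10 CPM, 1888 ± 10.4 reached 100 CPM and 57.8 ± 4.11 reached 1000 CPM.

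The 20 most abundant genes were noncoding and mitochondrial RNAs and, among messenger RNAs, mostly genes of rods and genes shared by rods and cones. Yam1, a symbol given to a long noncoding RNA, was first at 79175, 91045, 107129 and 84027 CPM in replicates 1 to 4. It has no entry in the reference annotation used here and its locus was not checked. Whether its counts come from another abundant RNA at the same place was not tested. Sag, the rod arrestin that ends the opsin's signal, took rank 7 at 5647, 8680, 10039 and 9465 CPM and lies on the plus strand of chromosome 1 (87803680 to 87845158, GRCm38). Phosducin (Pdc), which binds the transducin beta-gamma pair, followed at rank 11 with 5369, 4631, 5171 and 5347 CPM. Gnat1, the rod transducin alpha subunit, ranked 13 at 5102, 4334, 4385 and 3535 CPM. Prph2, a tetraspanin of the outer segment disc rim, and Gnb1, the transducin beta subunit, were at 3094 ± 230 and 2882 ± 142 CPM (SD, n = 4). Malat1 and Meg3, nuclear long noncoding RNAs, were at ranks 5 and 14.

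**Figure D1:**
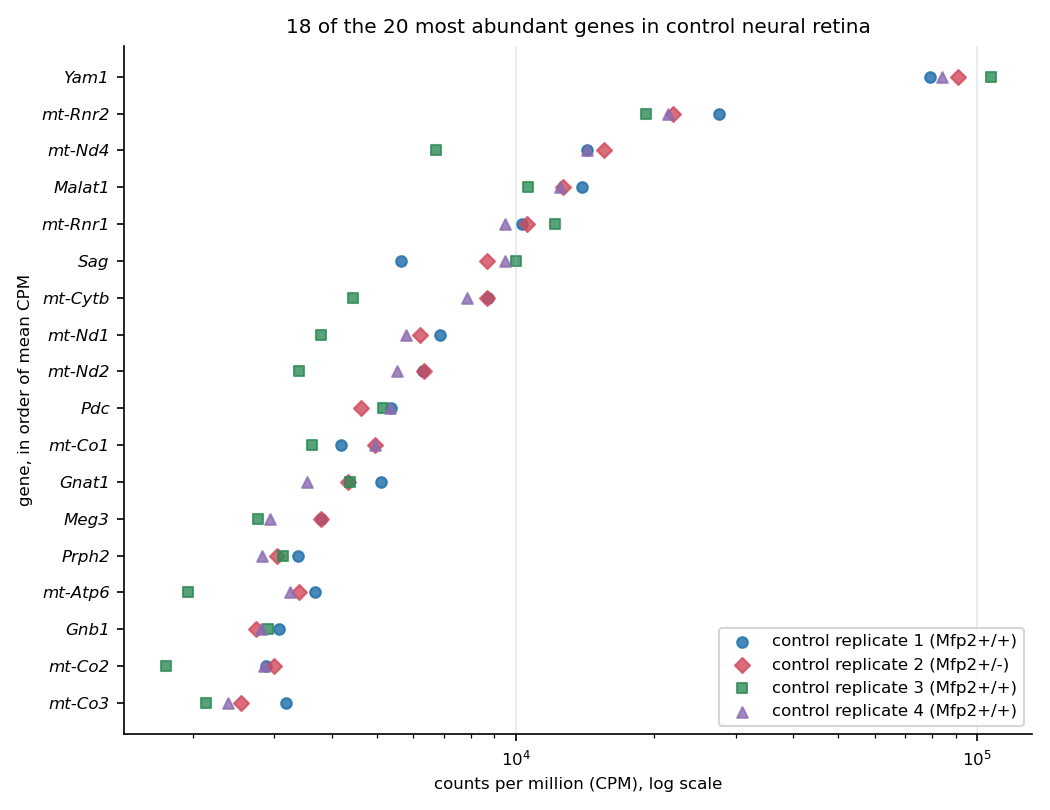
CPM on a log axis for 18 of the 20 genes with the highest mean, 1 point per control library. Yam1 is first in every library at 79175 CPM or more, and the points of replicate 3 lie left of the others for mt-Nd4, mt-Cytb, mt-Nd1, mt-Nd2, mt-Atp6 and mt-Co2.

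Transcripts encoded by mitochondria had 262566, 199526, 195390 and 238437 counts in replicates 1 to 4, which is 7.89% ± 1.29 of the counts in genes (SD, n = 4) and 6.06% in replicate 3. Replicate 3 was lowest, and the difference was not the same for all of these genes. mt-Nd4, a subunit of respiratory complex I, was at 14306, 15555, 6728 and 14280 CPM, while mt-Rnr1, the small ribosomal RNA, was at 10324, 10611, 12192 and 9506 CPM with replicate 3 highest. mt-Atp6 and mt-Co3 share annotated exon bases, so that the split of reads between them is uncertain. Ribosomal protein genes, 76 in all, held 0.958% ± 0.0597. Reads that aligned to several places (19.9% to 21.3% of reads) were not counted, so this share may be too low where genes have near-identical copies.

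Lists of marker genes gave the make-up of the tissue by transcript, with rods far ahead of any other cell type. The 22 rod genes held 4.99%, 5.21%, 5.85% and 4.78% of the counts (mean 5.21% ± 0.465, SD, n = 4), and 20 of them were at 100 CPM or more. The 30 genes shared by rods and cones held 2.76% ± 0.129 and the 18 cone genes 0.259% ± 0.00790. The median member of the rod list was at 1013 CPM, that of the shared photoreceptor list at 460 CPM and that of the cone list at 134 CPM. In bulk tissue, fewer cells of a type and less RNA per cell cannot be told apart, and the lists differ in length, so the shares are not shares of cells.

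Among rod genes below the top, the members of the cGMP cascade stood highest. Pde6g, the inhibitory subunit of the phosphodiesterase, was at 2576, 2338, 2628 and 2095 CPM. The catalytic subunits Pde6a and Pde6b were at 2012, 1915, 1825 and 1638 CPM and at 1544, 1475, 2592 and 1425 CPM. Pde6b was thus higher in replicate 3 than in the other replicates, which lay close together. The rod transcription factors Nrl and Nr2e3 were at 849 to 1047 and 775 to 909 CPM. Crx and Otx2, homeodomain factors of photoreceptors and of part of the inner retina, were at 415 ± 41.9 and 450 ± 38.5 CPM.

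Cone genes were present at lower levels. The short-wavelength opsin Opn1sw was at 367, 321, 395 and 307 CPM and the medium-wavelength opsin Opn1mw at 264, 212, 230 and 244 CPM. Opn1sw overlaps Calu on the other strand, and whether counting used the strand is not given in the sources used here. Arr3, the cone arrestin, was at 189, 192, 187 and 193 CPM, a coefficient of variation (SD over mean, CV) of 1.44%. Arr3 was among the 10 genes of lowest CV at 50 CPM or more, a CV below counting error at its counts and so not read as a trait of the gene. Cnga3, the alpha subunit of the cone channel, was low at 18, 16, 39 and 30 counts (6.17 to 12.1 CPM), and its partner Cngb3 was at 64.5, 38.4, 25.4 and 37.4 CPM.

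Inner neurons followed at shares below 1%. The 24 bipolar genes held 0.403%, 0.409%, 0.405% and 0.420%, which was the smallest relative spread of any cell type list (CV 1.80%). Gnao1, the G protein alpha subunit of the ON bipolar response and of many other neurons, led it at 1021 CPM. Trpm1, the channel that opens in ON bipolar cells when light comes on, was at 560, 621, 480 and 614 CPM, and Grm6, the glutamate receptor that gates it, at 115, 115, 125 and 116 CPM. Prkca, the protein kinase used to mark rod bipolar cells, was at 306, 314, 336 and 432 CPM.

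The 24 amacrine genes held 0.326% ± 0.0116 (SD, n = 4). Their highest member was the transcription factor Tfap2b at 567, 541, 581 and 567 CPM, followed by Prox1 at 413 CPM and the calcium-binding protein Calb2 at 361 CPM. Prox1 and Calb2 also occur in other inner neurons. Gad1, which makes GABA, was at 200 ± 15.9 CPM, whereas the markers of rarer amacrine types were low, with the starburst gene Chat at 22.2 ± 4.21 CPM and the dopaminergic gene Th at 4.01 ± 2.02 CPM. The 13 horizontal cell genes held 0.113% ± 0.00593, led by Ndrg1, Sphkap and Sept4, which are not restricted to horizontal cells. Of the horizontal cell factors, Lhx1 was at 21.4 CPM and Onecut1 at 4.41 CPM.

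The 24 ganglion cell genes held 0.252%, 0.234%, 0.280% and 0.218%. Nefl, a neurofilament subunit, made up 35.6% of the list at 879, 838, 1034 and 754 CPM. Nefl and Nefm overlap on opposite strands. Of the 22 genes of this list tested for variation, 12 were highest in replicate 3 and 9 were lowest in replicate 4. Over all genes tested, 29.4% were highest in replicate 3 and 22.5% were lowest in replicate 4. The pattern was not particular to ganglion cell genes. Of the 22 rod genes tested, 11 were highest in replicate 3 and 13 were lowest in replicate 4. Of the 26 Müller genes these numbers were 12 and 7, and of the 24 bipolar genes 6 and 2. The melanopsin gene Opn4 of light-sensitive ganglion cells was at 4.80, 3.42, 2.79 and 2.67 CPM.

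Müller glia had the largest share after photoreceptors among the cell type lists, at 0.757%, 0.765%, 0.832% and 0.796% for 26 genes. Glul, the glutamine synthetase that clears glutamate, gave 27.8% of it and was at 1728, 2305, 2399 and 2330 CPM, lowest in replicate 1. Sparc, Apoe and Clu, secreted proteins made by these and other cells, were at 680 ± 76.2, 573 ± 73.5 and 490 ± 61.1 CPM (SD, n = 4), and Rlbp1, the retinaldehyde-binding protein, was at 266 CPM. The water channel Aqp4 and the potassium channel Kcnj10 were at 62.1 and 27.5 CPM. The 8 astrocyte genes held 0.0577% ± 0.00331, of which Aldoc, an aldolase that other retinal cells may also express, gave 79.2%, and Pax2, the factor of optic nerve astrocytes, was at 1.82 CPM.

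Transcripts of immune cells were rare. The 20 microglial genes held 0.00946%, 0.00970%, 0.00973% and 0.0113%, with 3 members at 10 CPM or more, among them Ctss, a lysosomal protease, at 17.5 CPM and Csf1r, the receptor on which these cells depend, at 14.9 CPM. P2ry12 and Tmem119, receptors and surface proteins of resting microglia, were at 1.43 and 3.14 CPM. All 13 lymphocyte and neutrophil genes were under 1 CPM and 5 of them had no count, and their counts summed to 12, 2, 5 and 5. The 18 genes of gliosis and acute phase held 0.0160% ± 0.00193, of which Stat3 gave most at 96.0 CPM. Gfap, the filament of astrocytes and reactive Müller glia, was at 15.4, 5.55, 16.7 and 8.02 CPM, and the cytokine genes Lif and Edn2 were under 1 CPM.

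Transcripts of vessels and of the tissue behind the neural retina were few. Endothelial genes held 0.0552% ± 0.00203, led by Slc2a1, a glucose transporter that photoreceptors share. Genes of the retinal pigment epithelium held 0.0535%, 0.0446%, 0.0562% and 0.0363%, with Ttr, a thyroid hormone and retinol carrier, giving 44.0% of the list. Rpe65, the isomerase that defines that epithelium, was at 11.3, 10.3, 19.2 and 13.0 CPM, and Best1 was under 1 CPM.

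**Figure D2:**
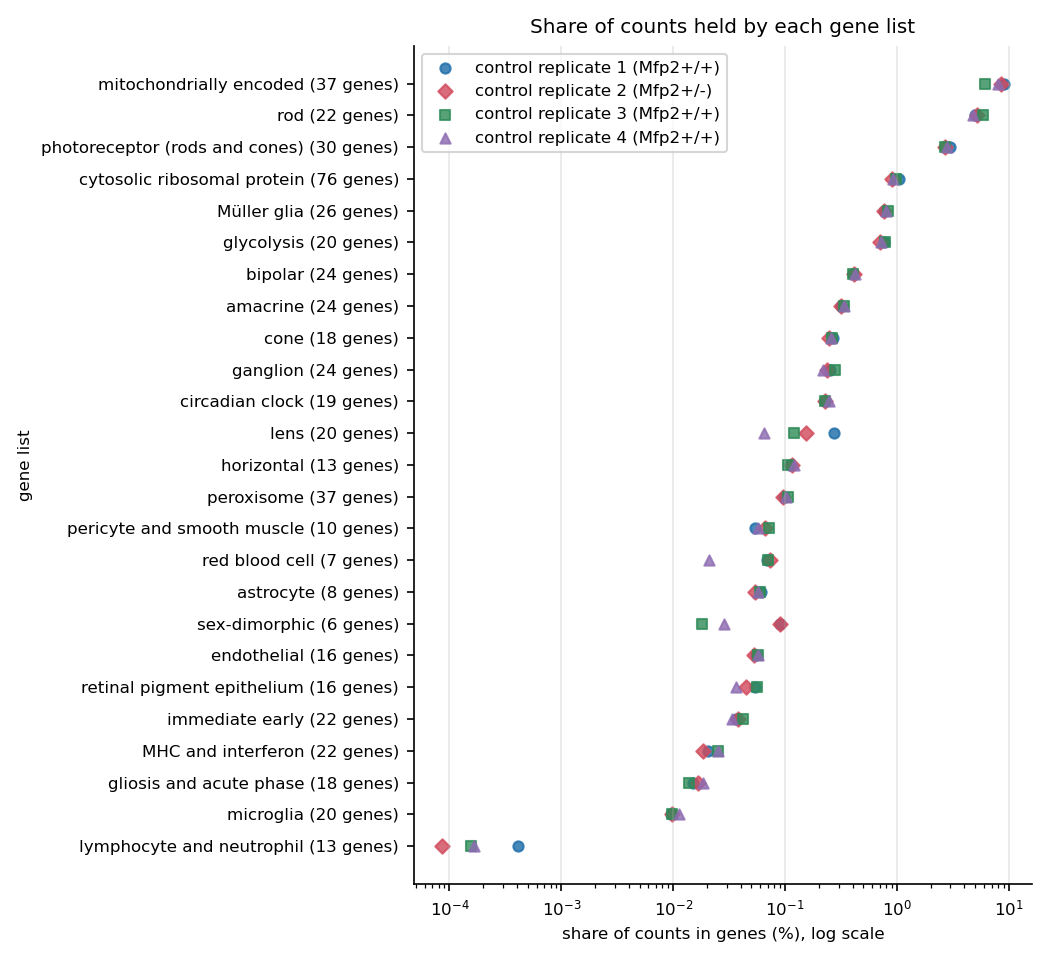
Share of counts in genes (%, log axis) held by each gene list, 1 point per control library. Rod genes lie at 4.78% to 5.85%, microglial genes at 0.00946% to 0.0113%, and the lens, red blood cell and sex-dimorphic lists have the most scattered points among lists with more than a few counts.

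In 10 gene pairs of phototransduction the rod member was set against the cone member in each library, with Pde6a and Pde6b both set against Pde6c, and the rod gene was higher in every pair and library. The counts are of whole neural retina, and some members, such as those of the transducin beta pair, may also be expressed in other cells. A ratio is thus one of transcripts in the tissue and not of rods to cones. Gnat1 exceeded Gnat2 by 29.0, 32.5, 28.0 and 23.2 times in replicates 1 to 4. Sag exceeded Arr3 by 29.8 to 53.7 times, with the lowest ratio in replicate 1, where Sag itself was lowest. Cnga1 exceeded Cnga3 by 63.9 to 205 times, the widest of the 10 ranges, and Cnga3 had at most 39 counts in a library. The transducin gamma pair was the closest, with Gngt1 at 7.35 ± 1.84 times Gngt2 (SD, n = 4).

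The median over the 10 pairs was 17.1, 16.7, 23.9 and 15.1 in replicates 1 to 4, highest in replicate 3. In that library, replicate 3, Pde6b was high and Cngb3 low, and the ratios of Pde6b to Pde6c and of Cngb1 to Cngb3 were 24.7 and 23.2, against 13.6 to 13.9 and 9.21 to 14.4 in the other libraries. Cngb3 varied beyond the trend in the test given below (edgeR, adjusted p = 0.0423) and was not called when replicate 1, 2 or 3 was left out, whereas Pde6b had an adjusted p of 0.409.

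**Figure D3:**
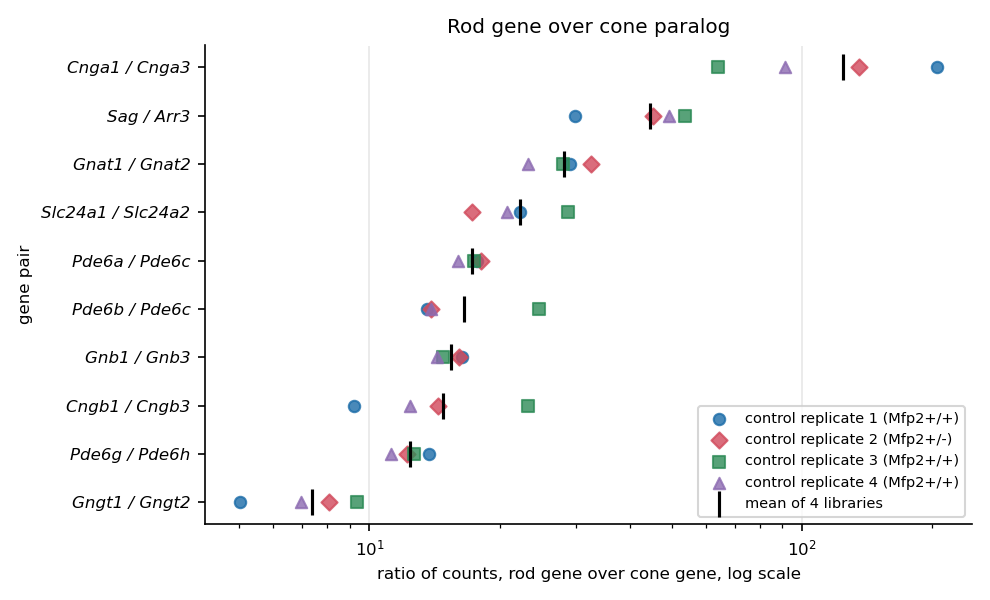
Ratio of the counts of the rod gene to those of its cone paralog (log axis), 1 point per control library and a bar for the mean. All points lie above 5, from 5.02 for Gngt1 over Gngt2 to 205 for Cnga1 over Cnga3.

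Promoters of photoreceptor genes are shown because several hold the core sequence TAATCC that Crx and Otx2 are known to bind. RefSeq promoter windows of 300 bases, 250 before and 50 after the start, were searched on both strands for TAATCC. It was present in 5 of 14 rod genes with a window (35.7%), in 3 of 13 cone genes (23.1%), in 8 of 25 shared photoreceptor genes (32.0%) and in 4 of 19 bipolar genes (21.1%). Of all 27025 windows 7.16% held it, and of the 8295 windows of genes tested for variation 5.49%. No ganglion cell window of 13 and no horizontal cell window of 7 held it, and 5 of 13 pigment epithelium windows did (38.5%). Astrocyte genes had it in 2 of 8 windows (25.0%) and sex-dimorphic genes in 2 of 5 (40.0%). Müller glia genes had it in 2 of 17 (11.8%) and amacrine genes in 2 of 19 (10.5%). The motif was thus not particular to photoreceptor and bipolar lists. The counts are small, and a match of 6 letters is not evidence of binding. Below are the 120 bases before the start of 3 rod genes and 1 cone gene whose window holds the sequence within that stretch, and of Arr3, which has none there. Each is 5′ to 3′ on the gene's strand, GRCm38.p6, with TAATCC or its complement GGATTA in capitals.
Sag (rod arrestin, chr1:87803560-87803679, plus strand): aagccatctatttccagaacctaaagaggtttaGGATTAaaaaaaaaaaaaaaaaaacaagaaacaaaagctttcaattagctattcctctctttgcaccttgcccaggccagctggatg
Gngt1 (rod transducin gamma, chr6:3993888-3994007, plus strand): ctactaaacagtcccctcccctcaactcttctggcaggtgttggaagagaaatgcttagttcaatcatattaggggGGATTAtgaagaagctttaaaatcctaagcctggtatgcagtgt
Cngb1 (rod channel beta subunit, chr8:95306586-95306705, minus strand): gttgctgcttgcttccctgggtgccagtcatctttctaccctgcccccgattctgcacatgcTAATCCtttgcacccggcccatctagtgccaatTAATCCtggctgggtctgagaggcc
Gnat2 (cone transducin alpha, chr3:108092946-108093065, plus strand): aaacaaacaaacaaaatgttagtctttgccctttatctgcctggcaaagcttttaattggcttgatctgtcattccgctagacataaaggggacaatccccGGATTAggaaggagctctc
Arr3 (cone arrestin, chrX:100605377-100605496, plus strand): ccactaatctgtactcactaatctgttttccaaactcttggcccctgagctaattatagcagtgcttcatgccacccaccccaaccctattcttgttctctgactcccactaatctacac
The sequence begins 87 bases before the start in Sag, 44 in Gngt1, 58 and 25 in Cngb1 and 19 in Gnat2. The 5 genes differed widely in level, at 8458, 1246, 550, 155 and 190 CPM in the order printed.

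Most gene families had 1 clearly leading member. In 37 of 39 families compared, the leading gene exceeded the runner-up in all 4 libraries. With 4 libraries the exact two-sided sign-flip permutation test cannot give less than p = 0.13 (0.13 also after adjustment over the 39 families), so that no family could pass a threshold of 0.05. The leading member took over 90% of the family's counts in 10 families and under 60% in 11.

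The families with a leading share over 90% belonged to phototransduction, apart from synaptotagmin, pyruvate kinase and the family of Hsd17b4. Phosducin gave 99.4% ± 0.157 of the counts of Pdc and Pdcl, Cnga1 gave 99.0% ± 0.450 of the channel alpha family, and Gnat1 gave 96.5% ± 0.485 of the transducin alpha family (SD, n = 4). At the synapse, Syt1, the calcium sensor of release, gave 98.3% ± 0.268 against Syt2. Slc17a7, which loads glutamate into vesicles of photoreceptors and bipolar cells, gave 88.6% ± 1.20 of its family. Stx3, the syntaxin of ribbon synapses, gave 88.2% ± 0.668 of its family. The ribbon-synapse complexins Cplx4 and Cplx3 were at 438 ± 41.6 and 253 ± 17.9 CPM, against 166 ± 9.99 for Cplx2 and 91.6 ± 13.1 for Cplx1.

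Enzyme families of energy metabolism ranged from 1 expressed member to an even mix. Aerobic glycolysis is prominent in photoreceptors, and the 20 glycolysis genes held 0.744% ± 0.0333 of the counts. Pkm was the only pyruvate kinase gene with a count, at 1542, 1373, 1430 and 1389 CPM, and Pklr had none in any library. Ldha gave 89.6% ± 1.18 of the lactate dehydrogenase counts, Aldoa 77.5% ± 0.651 of the aldolase counts and the neuronal enolase Eno2 70.3% ± 3.58 of the enolase counts. Hexokinases were split between Hk1 (57.1% ± 2.56) and Hk2, which were at 467 and 348 CPM. Aldoa shares exon bases with Fam57b on the other strand. Gapdh was at only 3.53 CPM, and reads of genes with near-identical copies, such as Gapdh, align to several places and may not have been counted, so their levels are uncertain.

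In lipid metabolism, Elovl4, which elongates very long chain fatty acids in photoreceptors, gave 70.5% ± 3.14 of 7 elongase genes at 466, 343, 367 and 319 CPM. Acsl3 gave 65.8% ± 2.81 of the long-chain acyl-CoA synthetases and overlaps Utp14b on the same strand. Of the peroxisomal genes, 37 in all, none reached 100 CPM, and the list held 0.0983%, 0.0952%, 0.105% and 0.102% of the counts. Far1, which makes the alcohols of ether lipids, and Pex11a were its highest members at 97.2 and 81.4 CPM. Hsd17b4 and Ehhadh, which encodes another peroxisomal bifunctional enzyme, were set together as a family by function, and their sequences were not compared. Hsd17b4 gave nearly all counts of this family, and Ehhadh had counts in replicate 1 alone.

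Neither member led in every library in 2 families. Pde6a and Pde6b exchanged order in replicate 3 (exact sign-flip permutation test, two-sided, p = 0.625), where Pde6a was at 1825 and Pde6b at 2592 CPM. The sodium pump beta subunits Atp1b1 and Atp1b2 were close together throughout, with a mean ratio of 1.05 (p = 0.500 in the same exact test).

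Variation was examined only in genes that met a minimum count in each of the 4 control libraries. Genes high in some libraries and near 0 in others, such as those that differ between the sexes (below), were left out. This gave 11333 genes. Of these, 3343 (29.5%) varied by more than counting error (edgeR goodness of fit, Benjamini-Hochberg adjusted p under 0.05; 4513 at an unadjusted p under 0.05), and 2005 or 2057 did so without replicate 1 or replicate 3. The median CV was 14.9%, with 5.25% and 35.8% as the 5th and 95th percentiles. A stricter test asked which genes varied more than genes of like abundance, and 128 did (1.13%). The typical biological CV in that fit was 0.142 as a fraction of the mean.

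By the stricter test the retinal cell type lists held 0 or 1 called gene each, to be read beside the 1.13% called of all genes tested. None of the 22 rod genes, 24 bipolar, 23 amacrine, 12 horizontal, 22 ganglion cell and 26 Müller genes tested passed it. One of 16 cone genes did, Cngb3, and 1 of 29 shared photoreceptor genes, Rp1, neither of which was called without replicate 3. By the test against counting error, 20 of 22 rod, 24 of 29 shared photoreceptor, 18 of 26 Müller, 9 of 24 bipolar and 8 of 23 amacrine genes passed, to be read beside 29.5% over all genes tested and beside the higher counts of rod genes. The median CV was 11.1% for rod genes, 9.55% for shared photoreceptor genes and 12.3% for bipolar genes. At 50 CPM or more the genes of lowest CV were Ndrg3 at 260, 257, 260 and 257 CPM (CV 0.671%), Rnps1, Tcf25, Mgrn1, Arid3b, Ing4, Prnp, Arr3, Prune2 and Chtop. They are the low end of 3809 genes sorted by CV. At such counts, counting error alone spreads values more than the CV of Ndrg3, so this order is not read as a trait of the genes.

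Lens crystallin genes were the list with most calls beyond the trend. The 20 lens genes held 0.275%, 0.152%, 0.120% and 0.0648% of the counts, and 15 of the 17 tested varied beyond the trend. Crygd, a gamma crystallin, was at 174, 61.1, 50.8 and 22.1 CPM (adjusted p = 5.4e-18). Cryba1, a beta crystallin, was at 466, 229, 174 and 101 CPM (adjusted p = 1.5e-10), and Cryaa, an alpha crystallin also made in retina, at 369, 206, 144 and 112 CPM. All 17 tested lens genes were highest in replicate 1 and 16 were lowest in replicate 4, with a median ratio of 4.43 between these libraries (2.31 to 9.24). Of all genes tested, 25.4% were highest in replicate 1 and 22.5% were lowest in replicate 4. Without replicate 1 or without replicate 4, 10 lens genes varied beyond the trend, and without replicate 2 or 3, 15 did; Cryaa was among those lost without replicate 1. The anterior segment, which holds the lens, was removed at dissection in the study's methods. Gamma crystallin genes are near-identical in sequence, so that the split of reads among them is uncertain.

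Other genes typical of tissue next to the retina varied too. The 7 red blood cell genes held 0.0685%, 0.0736%, 0.0696% and 0.0210%, and all 4 globin genes tested varied beyond the trend and were lowest in replicate 4, without which none did. Hbb-bs was at 365, 336, 339 and 97.2 CPM (adjusted p = 1.8e-07). The globin genes within a cluster are also close copies. Ttr, at 207, 212, 296 and 124 CPM, and Rgr, at 33.3, 35.9, 45.3 and 15.7 CPM, were the pigment epithelium genes called (adjusted p = 0.0426 and 0.0429), both lowest in replicate 4, and neither was called when replicate 2, 3 or 4 was left out. The list as a whole did not share this order. Of its 11 genes tested, 4 were lowest in replicate 4, 4 in replicate 2, 2 in replicate 3 and 1 in replicate 1. Optc, which encodes opticin, a protein of the vitreous, was at 11.7, 4.27, 5.27 and 44.8 CPM, highest in replicate 4 and not called without it. Egr1, an immediate early gene, was at 37.4, 69.6, 47.1 and 23.4 CPM (adjusted p = 0.00595) and was the 1 called gene of 14 tested of its list, which held 0.0373% ± 0.00372 of the counts, though not when replicate 2 or 4 was left out.

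**Figure D4:**
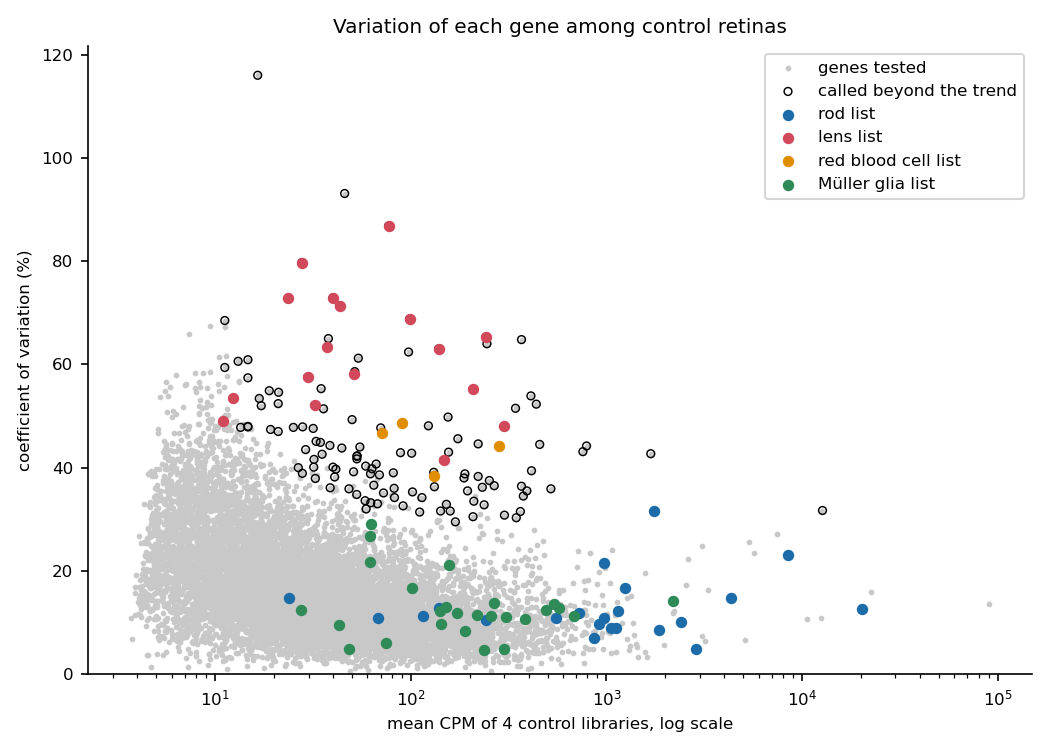
CV among 4 control libraries (%) against mean CPM (log axis) for 11333 genes, with 128 genes called beyond the trend ringed. Lens genes lie between 41.4% and 86.8% and globin genes between 38.4% and 48.6%, above most genes of like level, while rod genes lie at 31.7% or less.

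Most of the 128 genes had their lowest value in replicate 3, and many their highest in replicate 1. Of the 128 genes, 87 were lowest in replicate 3 (68.0%, against 23.4% of all genes tested) and 75 were highest in replicate 1 (58.6%, against 25.4%). Kcnq1ot1, a long noncoding RNA of an imprinted cluster, was at 621, 303, 68.2 and 480 CPM (adjusted p = 1.3e-18). Cep290, a protein of the photoreceptor connecting cilium, was at 632, 400, 111 and 499 CPM (adjusted p = 1.2e-11), and Rp1, a microtubule protein of the outer segment, at 2246, 1852, 633 and 2007 CPM (adjusted p = 3.6e-06). Ccdc88a and Cadm2 were likewise lowest there, at 84.6 and 111 CPM against 384 or more in each of the other replicates.

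Those 87 genes had a median transcript GC content of 40.0% and a median length of 5835 bases (73 of them matched to the annotation), against 49.4% and 3545 bases for all genes tested. When all matched genes were cut into 5 equal bins by GC content, the median log2 difference of replicate 3 from the mean of the other replicates ran from -0.11 in the lowest bin to 0.10 in bin 4 and 0.08 in bin 5. The correlation with GC content across 10733 genes was 0.250 (Spearman's rho 0.223) in replicate 3 and -0.131 to -0.0608 in the others. Without replicate 3, Cep290, Rp1, Ccdc88a and Cadm2 were no longer called and Kcnq1ot1 still was. In all, 45 genes then varied beyond the trend, of which 39 were among the 128, and 15 lens and 4 globin genes were among the 45. The part of base content, length and library preparation in these calls was not tested.

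**Figure D5:**
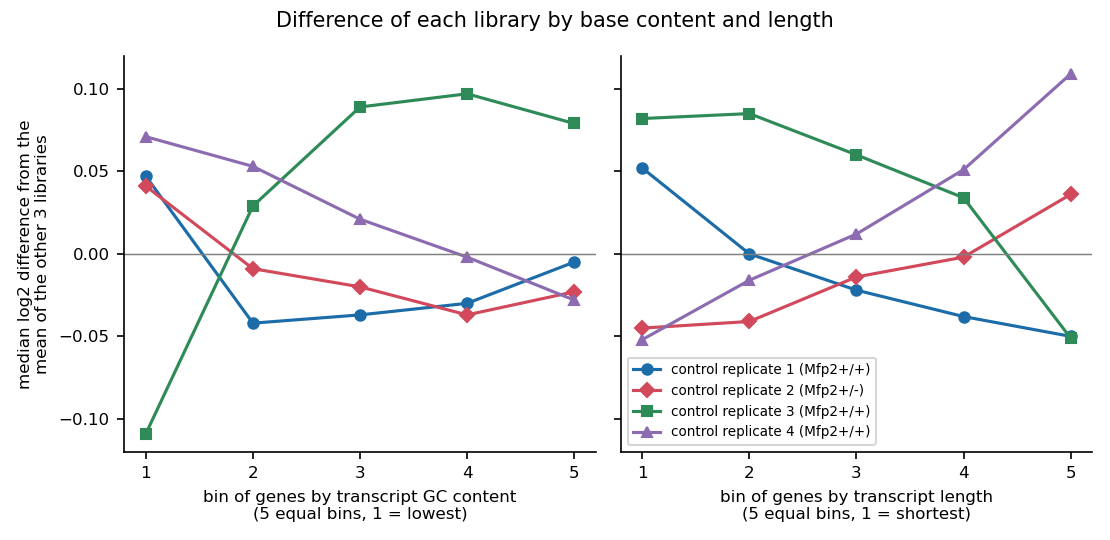
Median log2 difference of each control library from the mean of the other 3, over 5 equal bins of 10733 genes by transcript GC content (left) and length (right). Replicate 3 runs from -0.11 to 0.10 over GC content, and replicate 4 from -0.05 for the shortest to 0.11 for the longest transcripts.

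Of the remaining 41 genes, 8 were lowest in replicate 1, which is 6.25% of the 128 called, against 30.2% of all genes tested. Hopx, a homeodomain protein, had 28, 117, 247 and 212 counts (adjusted p = 1.4e-11; not called without replicate 1), and Rpl34, a ribosomal protein, at 30.9, 77.3, 176 and 105 CPM (adjusted p = 3.9e-11). Nelfcd was at 15.1, 72.6, 88.6 and 39.4 CPM and overlaps Ctsz on the other strand.

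Genes that differ between the sexes split the controls. Xist, the RNA that silences 1 X chromosome in females, was at 892, 895, 4.96 and 2.34 CPM. The Y-linked genes Ddx3y, Eif2s3y, Uty and Kdm5d ran the other way, with at most 1 count each in replicates 1 and 2 and between 118 and 306 counts in replicates 3 and 4. These 5 genes were not among the 11333 tested, because the filter asked for a minimum count in every library. Without a filter on low counts, all 5 were among the 140 genes called beyond the trend (0.687% of 20375). The Mfp2+/- library was 1 of the 2 libraries with high Xist, and no comparison was made between the pairs.

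The Mfp2+/- library was last set against the 3 Mfp2+/+ libraries. No gene of 11333 passed (0.0%; edgeR quasi-likelihood test, Benjamini-Hochberg adjusted p under 0.05), while 167 had an unadjusted p under 0.05. DESeq2 and limma-voom also called 0, with 25 and 150 at an unadjusted p under 0.05. With 1 Mfp2+/- library its spread is assumed to equal that of the others, and a p that misses the threshold does not show that the genotypes are alike. The smallest p values belonged to Ssc5d, with 24, 57, 28 and 36 counts in replicates 1 to 4 (log2 fold change of Mfp2+/- over Mfp2+/+ 1.35 ± 0.35, SE; adjusted p = 1.000), then Lyrm7, Nhsl2, Fam114a2 and Nrg2. Without a filter on low counts 8 genes were called, among them Xist, Ddx3y, Eif2s3y, Uty and Kdm5d, which follow the split of the libraries described above. Without replicate 3, 4 were called, namely Gm29216, Hba-a2, Nelfcd and Optc. These names were chosen after their values were seen. Hsd17b4 itself was at 8.54 CPM in the Mfp2+/- library and at 12.4 to 24.2 CPM in the others.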

How the data were processed

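RNA of both retinas of each mouse was sequenced from 3′ tags (single-end reads of 50 bases). Gene counts were deposited by the authors, whose processing notes list FastQC 0.11.7, HISAT2, SAMtools 1.5, HTSeq 2.7.14 and build mm10; the sources used here name no annotation release and no strand setting. Rows that name no gene were dropped (reads outside genes 22.6% to 29.9%, not uniquely aligned 19.9% to 21.3%). A merged table of the series was not used.

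Counts were scaled to CPM of the total in genes. Genes kept by edgeR's filterByExpr (11333) were scaled by TMM (edgeR 4.0.16, R 4.3.3) and tested within the controls by goodness of fit with dispersion 0 (beyond counting error) and with the trended dispersion (beyond the trend), and Mfp2+/- was tested against Mfp2+/+ by quasi-likelihood, with DESeq2 1.42.0 and limma 3.58.1 as alternatives. Paralogs were compared by sign-flip permutation. The code was tested on simulated data. Coordinates are those of GENCODE M21 (GRCm38), which holds 18809 of 20375 symbols with a count. RefSeq supplied the promoters.

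The members, gene lists and families were chosen with earlier results of these data known. Genes named are the 20 most abundant, up to 4 of each list with members that mark a cell type, the families, the 15 smallest p beyond the trend, the 10 highest and 10 lowest CV at 50 CPM or more, the 5 smallest p by genotype, and Hsd17b4, leaving out predicted genes in the last 3 rules; others were named after their values were seen. A few genes that these rules pick are not reported here. The replicates are separate mice.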

Additional observations from a re-analysis of the deposited data

Results flagged for a closer look

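Of 192 quantities examined among the 4 control libraries, 15 (7.81%) had 1 library whose gap to the nearest other exceeded Dixon's critical value for 4 samples, as a share of the range. Chance gives about 1 in 20 for a single normal quantity. Many of these quantities overlap, such as a list share and its member genes, so 7.81% is not read as an excess over chance. Replicate 1 was the outlying library in 6, replicate 2 in 0, replicate 3 in 4 and replicate 4 in 5.

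Replicate 4 had a microglial share of 0.0113% (0.00946% to 0.00973% in the others), a circadian clock share of 0.248% (0.226% to 0.228%) and a red blood cell share of 0.0210% (0.0685% to 0.0736%), with Hbb-bs at 97.2 CPM (336 to 365) and Hbb-bt at 21.4 CPM (85.0 to 90.5). The first 2 were not differences of the whole list. Of the 20 microglial genes, 4 were highest in replicate 4, against 7 in replicate 1 and 7 in replicate 3. Of the 19 clock genes, 7 were highest in replicate 4 and 6 in replicate 3. Rorb gave 33.2% of the clock list, which without it held 0.155% ± 0.00367 of the counts. In replicate 3, mt-Nd4 was at 6728 CPM and mt-Co2 at 1744 CPM (2855 to 2991 in the others), whereas Calb2 was at 415 CPM (342 to 345) and Pde6b at 2592 CPM (1425 to 1544). In replicate 1, Glul was at 1728 CPM (2305 to 2399), the melanin gene Dct at 121 CPM (61.9 to 70.4), Rpl4 at 599 CPM (435 to 458) and the cone transducin gamma gene Gngt2 at 205 CPM (159 to 166). Aldoa gave 76.5% of the aldolase counts in replicate 1 (77.7% to 77.9%), and Hsd17b4 gave 95.9% of its family there, where Ehhadh had 2 counts, and all of them in the others.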

How the results depend on the processing

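Of 468 alternative values, 395 kept their direction and their side of the threshold or moved by less than 1 SD among libraries, and none reversed. The calls depended on single libraries: leaving out 1 replicate gave 2005 to 3209 genes beyond counting error (lowest without replicate 1), 45 to 122 beyond the trend (lowest without replicate 3) and 0 to 4 for Mfp2+/- against Mfp2+/+ (4 without replicate 3). Without a filter on low counts the last gave 8. The cause was not tested. No paired analysis was possible because the only Mfp2+/- library shares no replicate number with a Mfp2+/+ library and the tests did not use the Mfp2-/- libraries. Depth limits statements on genes under about 1.28 CPM.

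Shares follow from what they are divided by. With mitochondrially encoded genes left out of the total, the shares in percent were cone 0.281, photoreceptor (rods and cones) 3.00, bipolar 0.444, amacrine 0.354, horizontal 0.123, Müller glia 0.855, astrocyte 0.0627, microglia 0.0109, endothelial 0.0600, circadian clock 0.252, glycolysis 0.808, peroxisome 0.109 and cytosolic ribosomal protein 1.04, and the top shares were 16.6% for the 10 most abundant genes, 26.9% for the 100 most abundant genes, 54.9% for the 1000 most abundant genes, and the mean numbers of genes per library were 9736 at 10 CPM, 2055 at 100 CPM. With Yam1 left out too, a choice made after seeing the data, they were rod 6.27, cone 0.312, photoreceptor (rods and cones) 3.33, bipolar 0.492, amacrine 0.392, horizontal 0.136, ganglion 0.296, Müller glia 0.948, astrocyte 0.0695, microglia 0.0121, gliosis and acute phase 0.0192, MHC and interferon 0.0268, endothelial 0.0665, pericyte and smooth muscle 0.0752, retinal pigment epithelium 0.0573, immediate early 0.0449, circadian clock 0.279, glycolysis 0.896, peroxisome 0.121 and cytosolic ribosomal protein 1.15, and 7.88% for the 10 most abundant genes, 19.1% for the 100 most abundant genes, 50% for the 1000 most abundant genes, and the mean numbers of genes per library were 15174 at 1 CPM, 10004 at 10 CPM, 2303 at 100 CPM, 68 at 1000 CPM. Without its most abundant member, the shares of each list in percent were rod 3.18, cone 0.210, photoreceptor (rods and cones) 2.25, bipolar 0.307, amacrine 0.270, horizontal 0.0910, ganglion 0.158, Müller glia 0.569, astrocyte 0.0120, microglia 0.00829, gliosis and acute phase 0.00637, MHC and interferon 0.0156, endothelial 0.0376, pericyte and smooth muscle 0.0120, retinal pigment epithelium 0.0267, red blood cell 0.0297, immediate early 0.0318, circadian clock 0.155, sex-dimorphic 0.0115, glycolysis 0.587, peroxisome 0.0904, mitochondrially encoded 5.63 and cytosolic ribosomal protein 0.880.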

Other observations

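Circadian clock genes held 0.226%, 0.227%, 0.228% and 0.248% of the counts in control replicates 1 to 4. Rorb, a nuclear receptor with a role in rod development as well as in the clock, led them at 733, 752, 686 and 907 CPM, followed by Tef at 358 CPM and Hlf at 324 CPM. Without Rorb the list held 0.155% ± 0.00367 of the counts, so the higher share of replicate 4 is not read as a trait of clock genes. The repressors Per1, Per2 and Per3 were at 43.2, 19.4 and 93.3 CPM, and the activator Arntl was at 32.6 CPM. None of the 17 clock genes tested varied beyond the trend, beside 1.13% of all genes tested. In the study's methods, mice were killed in the afternoon, so these levels stand for 1 part of the day.

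Interferon and antigen presentation genes, 22 in all, held 0.0223% ± 0.00343 (SD, n = 4). B2m, the light chain of class I molecules, was highest at 65.8, 48.7, 82.1 and 70.2 CPM. The class II genes Cd74 and H2-Aa were under 1 CPM. Among genes of the vessel wall, Vtn, which encodes vitronectin and is also made in photoreceptors, gave 80.8% of the pericyte and smooth muscle list at 408, 522, 608 and 480 CPM, whereas the contractile gene Acta2 was at 7.58 CPM.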
